A study of Mus musculus with 6 samples.

Results

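Oxidative phosphorylation genes were followed in forestomach epithelium of control and Sox2 mutant mice. Members were taken by name from the array annotation in the scanner file of control 3: all gene names that start with Ndufa, Ndufb, Ndufc, Ndufs, Ndufv, Uqcr, Cox4 to Cox8 or Atp5, and Sdha, Sdhb, Sdhc, Sdhd and Cyc1. This gave 90 of the 28101 gene names on the array, read by 127 of its 41174 probes. They comprise 36 complex I subunits, 4 complex I assembly factors and 4 complex II subunits. Complexes III, IV and V have 9, 18 and 15 subunits among them. The rule also took in 4 other genes, Cox7a2l, Cox4nb, Atp5s and Atp5sl, which were not placed with a complex. A probe entered the test when its sample signal was well above background on at least 3 of the 6 arrays, which 86 of the 90 genes met, among 20623 genes tested in all. The other 4 belong to complex IV: Cox4i2, Cox7b2 and Cox8c were well above background on 0 arrays, and Cox8b on controls 1 and 2 alone.

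Control mice carried K5-CreER, a recombinase that tamoxifen activates and that the keratin 5 promoter restricts to basal cells of stratified epithelia. Mutants carried K5-CreER and Rosa26Sox2/Sox2, so a Sox2 transgene sat on both copies of the Rosa26 locus. Both groups were of a mixed 129/Sv and C57/BL6 background, were given 2 tamoxifen doses at 7 weeks of age and are labelled as 12 weeks old. Each group had 3 arrays, called biological replicates in the labels. Every array carried a mouse's epithelial sheet RNA in Cy5 and one reference RNA, pooled from 11 mouse cell lines, in Cy3. Values are log2 ratios of sample over reference, and a difference is mutant minus control throughout. The ratio sets a gene against its own level in the reference, so ratios of different genes do not rank their abundance.

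Oxidative phosphorylation couples the transfer of electrons from NADH and succinate to oxygen with the synthesis of ATP in the inner mitochondrial membrane. Complex I takes electrons from NADH and complex II from succinate; both pass them through ubiquinone to complex III, then through cytochrome c to complex IV, where oxygen is reduced. Complexes I, III and IV pump protons, and complex V, the ATP synthase, uses the proton gradient. Most subunits are encoded in the nucleus, a few in mitochondrial DNA, and several complex IV subunits have isoforms particular to muscle or testis.

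The sequences that carry the values described most closely are the 60-base probes of Cox7a1, Atp5b and Atp5j2, given 5′ to 3′ with their positions in the files' build, mm9. The Atp5b probes are those that were not the brightest of its 3 and repeat its difference; the Atp5j2 probes are its only 2, and they gave unlike values.
Cox7a1, chr7:30970337-30970948, plus strand: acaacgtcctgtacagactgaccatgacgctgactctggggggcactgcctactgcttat
Atp5b, chr10:127522569-127522628, plus strand: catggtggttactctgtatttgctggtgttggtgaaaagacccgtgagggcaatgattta
Atp5b, chr10:127521478-127522156, plus strand: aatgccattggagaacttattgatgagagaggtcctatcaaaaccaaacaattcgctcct
Atp5j2, chr5:145945453-145945512, minus strand: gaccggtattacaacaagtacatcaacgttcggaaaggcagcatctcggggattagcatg
Atp5j2, chr5:145950674-145950733, minus strand: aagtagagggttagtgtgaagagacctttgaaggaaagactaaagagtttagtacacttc
The placements of the Cox7a1 and the second Atp5b probe span 612 and 679 bases for 60 bases of probe, so the files place each over more than 1 stretch of the genome, as for a probe across a splice junction.

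Promoters were compared for a feature that the names did not use. RefSeq windows from 250 bases before to 50 after the start (build GRCm38.p6) matched 74 of the 90 genes. The letters GCGCANGCG, the core recognised by nuclear respiratory factor 1, stood on one strand or the other in 21 of the 74 (28.4%), against 7.03% of 27025 genes with such a window. The letters CCGGAAGT, bound by GABPA, stood in 5 (6.76%, against 4.31%), and TCAAGGTCA, bound by estrogen-related receptors, in 2 (2.7%, against 0.466%), Atp5g3 and Sdhd. A match is a description of letters and not evidence of binding. The 21 genes with the first motif, all tested, had a median log2 difference of 0.06 with 12 above 0, and the 51 tested genes without it had a median of -0.06. The 200 bases before the start are shown for 4 genes with the first motif, in capitals, whose differences ran in both directions.
Ndufs5, chr4:123718187-123718386, minus strand: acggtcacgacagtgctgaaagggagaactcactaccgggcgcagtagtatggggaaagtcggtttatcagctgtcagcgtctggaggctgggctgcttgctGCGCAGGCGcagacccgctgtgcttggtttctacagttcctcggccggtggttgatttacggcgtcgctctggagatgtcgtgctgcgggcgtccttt
Ndufa11, chr17:56717562-56717761, plus strand: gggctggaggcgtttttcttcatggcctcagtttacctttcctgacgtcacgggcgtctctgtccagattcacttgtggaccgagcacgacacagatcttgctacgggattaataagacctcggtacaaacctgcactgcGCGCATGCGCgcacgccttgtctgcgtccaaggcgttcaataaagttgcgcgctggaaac
Sdha, chr13:74350241-74350440, minus strand: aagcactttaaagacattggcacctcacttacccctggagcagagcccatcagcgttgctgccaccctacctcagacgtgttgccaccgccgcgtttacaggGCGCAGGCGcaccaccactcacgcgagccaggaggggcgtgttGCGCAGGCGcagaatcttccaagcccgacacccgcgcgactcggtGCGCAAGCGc
Sdhd, chr9:50603850-50604049, minus strand: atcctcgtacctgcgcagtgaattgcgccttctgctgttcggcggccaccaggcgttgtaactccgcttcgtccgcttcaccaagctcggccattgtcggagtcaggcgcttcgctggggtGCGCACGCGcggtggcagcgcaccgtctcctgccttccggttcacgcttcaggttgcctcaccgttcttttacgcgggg
In the Ndufa11 window 2 overlapping matches form the capitals, and the Sdha window holds 3 separate ones.

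Between 62.6% and 76.2% of all probes, and between 94.5% and 96.9% of the members' probes, gave a sample signal well above background, and 0 member probes were saturated. Control 3 was dimmest, with a median signal 4.81 times background against 12.1 to 13.1 times on the other arrays, and was the array scanned on another day. Controls 1 and 2 lay close together (scaled median absolute difference 0.16 log2 units over all genes), as did mutants 2 and 3 (0.10), whereas the remaining pairs lay 0.33 to 0.73 apart. All were kept as separate samples; if a close pair came from 1 RNA, the p-values and intervals below are too small. Each slide carried arrays of 1 genotype, and an effect of the slide cannot be told apart from that of the genotype. The Sox2 probe, which does not check the transgene, differed by -0.43 (SE 0.14, adjusted p = 0.143). Squamous markers were high on all arrays, with a median log2 ratio of 3.25 to 5.02 over 8 genes, as the labelled tissue would have. Markers of glandular stomach were present too: the medians of 9 parietal and 6 chief cell markers were 3.32 to 3.47 on controls 1 and 2, 2.46 to 3.27 on mutants 2 and 3, 0.39 each on control 3, and 1.41 and 0.56 on mutant 1.

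No oxidative phosphorylation gene passed the threshold in either direction between mutants and controls (limma, adjusted p under 0.05), 0 of 86, beside 2.82% of all genes tested. At an unadjusted p under 0.05 there were 10 members, 5 higher and 5 lower in mutants, or 11.6%, beside 23.9% of all genes. The members' median log2 difference was -0.01, with 42 above 0 and 44 below, and that of all genes was 0.01. The members also lay closer to 0: their median absolute difference was 0.17 against 0.26 for all genes, 0 members differed by over 1 log2 unit (2-fold), and 6.45% of all genes did. The 95% interval lay within 1 log2 unit of 0 on both sides for 79 of the 86, and within 0.5 units for 35. For all genes the first share was 70.5%. Members were also measured more precisely, with a median SE of 0.15 against 0.18 for all genes. The part of this precision in their smaller differences was not tested. The median interval of a member, which is not adjusted for the number of genes, reached 0.35 log2 units to either side. In a member with that interval, a smaller difference could not reach an unadjusted p under 0.05. A call after adjustment needs a larger difference. Differences of 0.57 (Ndufa4, adjusted p = 0.0715) and -0.53 (Ndufs5, adjusted p = 0.0736) were not called. In tissue RNA, fewer cells of a type and less RNA per cell cannot be told apart.

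**Figure D1:**
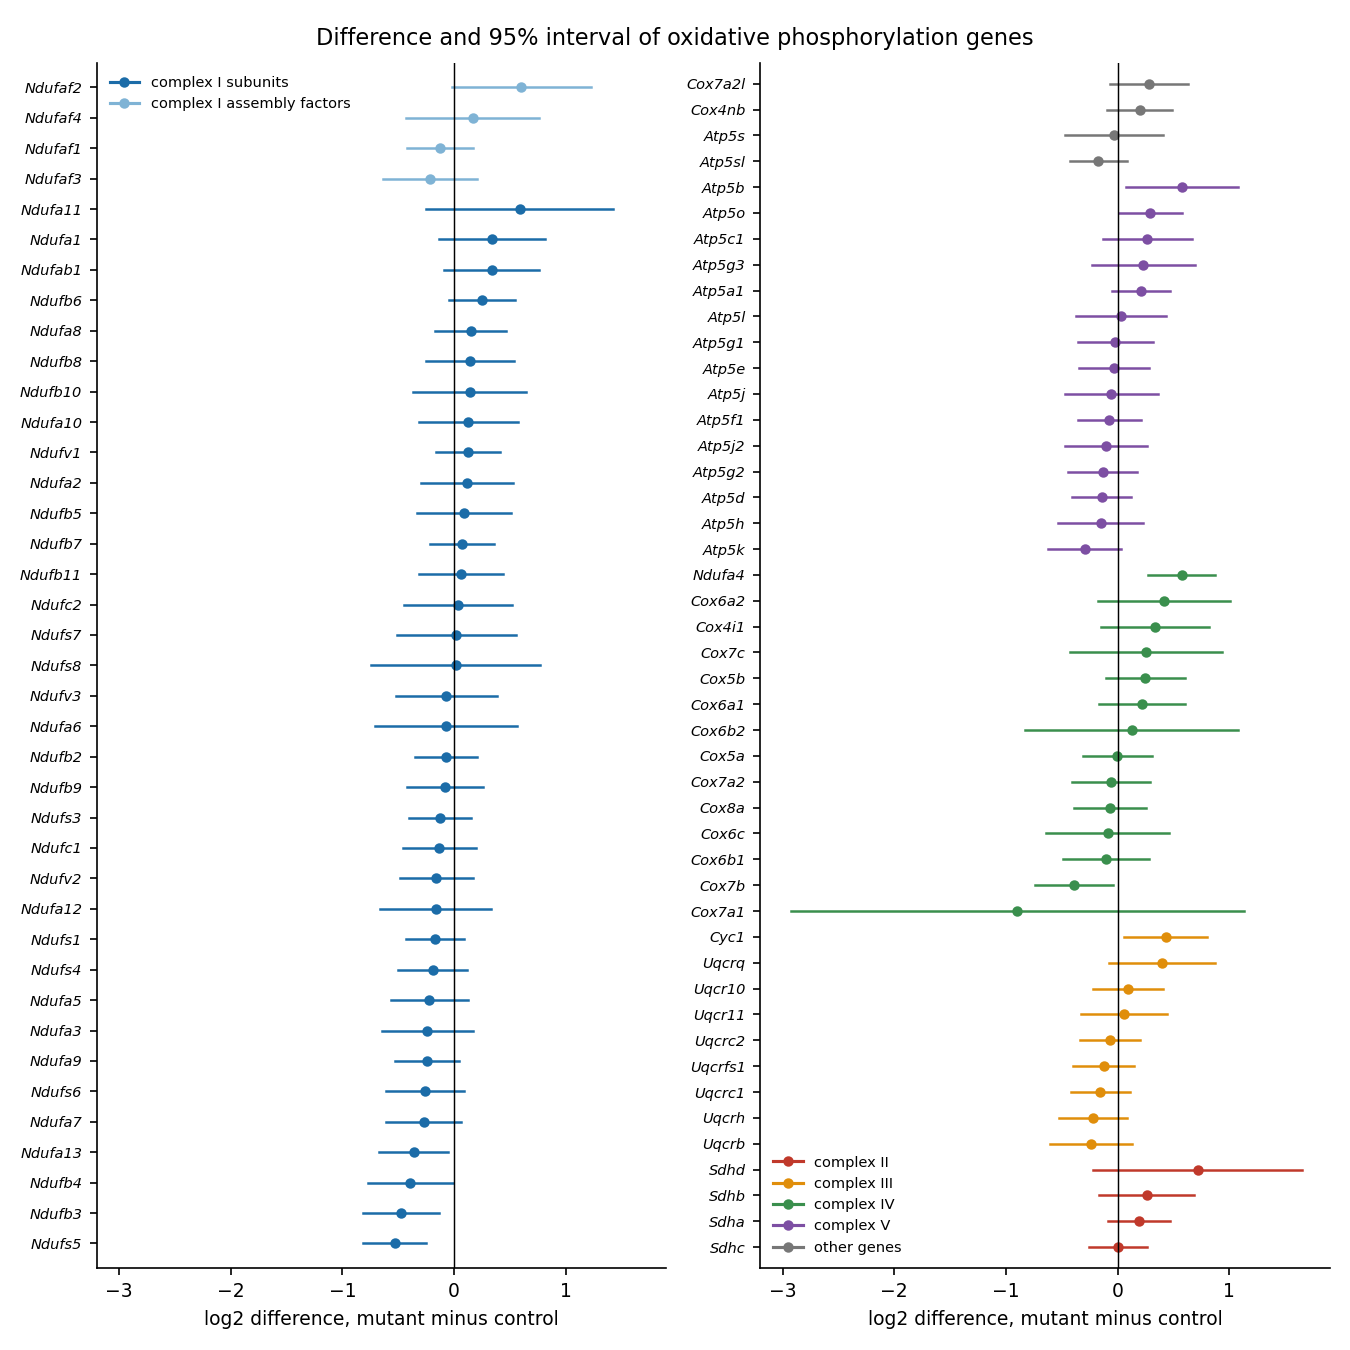
Log2 difference, mutant minus control, of 85 of the 86 oxidative phosphorylation genes tested (points), with its limma 95% interval (lines, 3 arrays a group), coloured by complex. Most intervals cross 0; Cox7a1 has the widest, from -2.93 to 1.13.

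The mutant and control arrays did not overlap for 29 of the 86 members, 18 higher and 11 lower in mutants. This is 33.7%, beside 37.9% of all genes with a value on every array. By complex the count was 9 of 36 for complex I subunits (3 higher, 6 lower), 1 of 4 for its assembly factors, 3 of 4 for complex II (all higher), 3 of 9 for complex III, 4 of 14 for complex IV and 6 of 15 for complex V. The median differences were -0.07 for complex I subunits, 0.02 for its assembly factors, 0.22 for complex II, -0.07 for complex III, 0.06 for complex IV and -0.03 for complex V. Each of these, other than those of complexes II and III, was smaller than the within-group SD of the list's median between arrays, which was 0.12, 0.17, 0.13, 0.02, 0.18 and 0.09 in the same order.

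**Figure D2:**
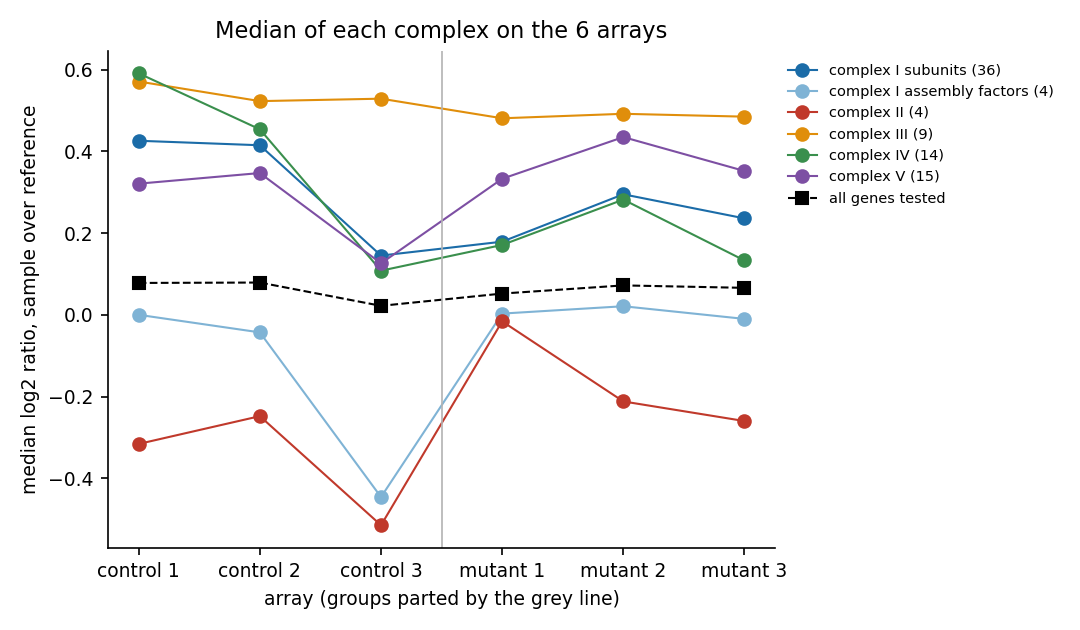
Median log2 ratio, sample over reference, of the genes of each complex on each array, with the number of genes in brackets and all genes tested as black squares. Lines only join the points of one complex. Control 3 has the lowest median of all 6 arrays for complexes I, II, IV and V, and the complex III medians stay between 0.48 and 0.57.

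None of the complex I subunits passed the threshold. Ndufs5, an accessory subunit, had log2 ratios of 0.65, 0.57 and 0.61 on the controls and -0.06, 0.16 and 0.15 on the mutants. Every mutant array lay below every control array, with a gap wider than the range of either group. The difference was -0.53 (SE 0.12, 95% interval -0.81 to -0.25, adjusted p = 0.0736). It was -0.31 with the sample channel alone, that is with Cy5 signals quantile-normalized between arrays and the reference left out. A second, far dimmer Ndufs5 probe, well above background on 5 arrays, gave -0.30. Its groups overlapped, at 0.66, 0.99 and -0.20 on controls and 0.56, 0.15 and -0.14 on mutants.

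Ndufb3, an accessory subunit of the membrane arm, had log2 ratios of 0.70, 0.57 and 0.50 on controls and -0.10, 0.28 and 0.16 on mutants, a difference of -0.47 (SE 0.14, adjusted p = 0.126), or -0.26 with the sample channel alone. Ndufa13, an accessory subunit also known as GRIM-19, had 0.37, 0.28 and 0.23 against -0.24, 0.06 and -0.03, a difference of -0.36 (adjusted p = 0.165). In both genes the groups did not overlap, and mutant 1 was the lowest array. Ndufb9, the complex I subunit with the brightest probe, differed by only -0.08 (95% interval -0.42 to 0.26), with mutants at -0.15, 0.11 and 0.26 around the controls at 0.18, 0.12 and 0.16. The remaining complex I subunits lay between -0.39 (Ndufb4) and 0.59 (Ndufa11).

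Ndufa11, an accessory subunit that helps hold the membrane arm together, had the largest difference upwards in complex I, 0.59 (SE 0.35, adjusted p = 0.343). Its log2 ratios were 1.17, 1.11 and 0.53 on controls and 0.81, 1.99 and 1.78 on mutants. Mutants 2 and 3 stood above every control, and mutant 1 fell among them. A second probe, which shares 50 bases with the first and so is not an independent reading, gave 1.01, 1.00 and 0.64 on controls and 0.72, 1.97 and 1.73 on mutants. The difference was 0.38 without control 3, 0.95 without mutant 1, 0.36 without mutant 2 and 0.74 without control 3 and mutant 1 (adjusted p = 0.00400).

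The 4 assembly factors, which are needed to build complex I and are not part of the finished enzyme, did not pass the threshold either. Ndufaf2, which acts late in assembly, had log2 ratios of 0.03, 0.00 and -0.87 on controls and 0.39, 0.27 and 0.31 on mutants. The mutants were all above the controls. The difference of 0.60 (SE 0.26, adjusted p = 0.220) became 0.31 without control 3 (adjusted p = 0.102). Ndufaf4 differed by 0.17 (95% interval -0.43 to 0.76), or -0.08 without control 3. Its dimmer probes gave -0.08 and -0.04 on all 6 arrays. Ndufaf1 differed by -0.12 (-0.42 to 0.17) and Ndufaf3 by -0.21 (-0.64 to 0.21).

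Complex II, succinate dehydrogenase, links the respiratory chain to the tricarboxylic acid cycle. All 4 subunits had a difference above 0 with their brightest probe, that of Sdhc by less than 0.01, and none passed the threshold. Sdha, the flavoprotein that oxidises succinate, had log2 ratios of 0.15, 0.31 and 0.18 on controls and 0.51, 0.34 and 0.36 on mutants, a difference of 0.19 (95% interval -0.09 to 0.47, adjusted p = 0.357). Its 2 other probes gave 0.14 and -0.29, and the mean of its probes 0.01. Sdhb, the iron-sulfur subunit, had -0.20, -0.16 and -0.70 against -0.01, -0.12 and -0.16, a difference of 0.26 that became 0.09 without control 3. In both genes the groups were apart, for Sdha by 0.04 log2 units and for Sdhb by less than 0.01.

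The membrane anchors of complex II differed from one another. Sdhd had log2 ratios of -0.62, -0.54 and -1.92 on controls and -0.02, -0.38 and -0.52 on mutants, the largest difference upwards of any member (0.72, SE 0.39, 95% interval -0.22 to 1.66, adjusted p = 0.306). Control 3 lay over 1 log2 unit below every other array, and without it the difference was 0.28. Sdhc had -0.43, -0.34 and -0.33 against -0.42, -0.31 and -0.36, with a difference of 0.00 (95% interval -0.26 to 0.26).

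The median of complex III, cytochrome bc1, varied least between arrays, but its single genes did not. Their median SD within controls was 0.17, beside 0.17 for complex I subunits and 0.12 for complex V. Cyc1, its cytochrome c1, had log2 ratios of -0.07, 0.15 and -0.32 on controls and 0.40, 0.41 and 0.25 on mutants. The groups did not overlap, and the difference was 0.43 (SE 0.15, 95% interval 0.06 to 0.80, adjusted p = 0.165). Uqcrq, a small subunit, had 0.51, 0.33 and -0.18 on controls and 0.69, 0.62 and 0.54 on mutants, a difference of 0.40 (adjusted p = 0.269) that became 0.20 without control 3. Another, far dimmer Uqcrq probe gave 0.09 with overlapping groups. Other small subunits were on the other side of 0: Uqcrb differed by -0.24 (-0.15 without control 3, -0.14 without mutant 1) and Uqcrh by -0.22, with overlapping groups. Uqcr10 and Uqcr11, small subunits too, differed by 0.09 and 0.06. The core proteins Uqcrc1 and Uqcrc2 and the Rieske iron-sulfur protein Uqcrfs1 differed by -0.16, -0.07 and -0.13.

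In complex IV, cytochrome c oxidase, Ndufa4 had the smallest p of all members. Named for complex I, its protein is now regarded as a subunit of complex IV. Its log2 ratios were 1.73, 1.82 and 2.01 on controls and 2.37, 2.51 and 2.40 on mutants, so that the groups were apart by more than the range of the controls. The difference was 0.57 (SE 0.12, 95% interval 0.27 to 0.88, a 1.49-fold difference, adjusted p = 0.0715). It was 0.65 without control 3 (adjusted p = 0.0291) and 0.31 with the sample channel alone (adjusted p = 0.241). Taken apart, the channels differed by 0.13 in the sample and by -0.44 in the reference. Cox7b, a small nuclear-encoded subunit, had 1.11, 1.02 and 0.80 on controls and 0.45, 0.76 and 0.55 on mutants, a difference of -0.39 (SE 0.14, adjusted p = 0.175), or -0.20 with the sample channel alone. Cox5b, a zinc-binding subunit, differed by 0.25 (95% interval -0.11 to 0.60), or 0.12 without control 3.

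The isoform pairs of complex IV were set side by side. Cox7a1, the heart and skeletal muscle isoform, had the most variable values of any member, with log2 ratios of 1.46, 1.18 and -1.68 on controls and -1.14, -0.12 and -0.47 on mutants. Controls 1 and 2 were above every mutant and control 3 below every mutant, so the groups overlapped and the difference of -0.90 had an SE of 0.84 (95% interval -2.93 to 1.13, adjusted p = 0.541). The difference was -1.90 without control 3 (adjusted p = 0.0363), -0.33 without control 1 and -0.47 without control 2. The ubiquitous isoform Cox7a2 differed by -0.06 (95% interval -0.41 to 0.29). Its values were 0.42, 0.18 and 0.06 against 0.03, 0.29 and 0.17. Cox7a2l, a relative that joins complexes III and IV into supercomplexes, differed by 0.28 with the groups apart by 0.01 log2 units (adjusted p = 0.287), and by 0.17 without control 3.

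Markers of other tissues were read beside Cox7a1. The median log2 ratio of 8 smooth muscle markers was 1.74, 1.28 and -0.83 on controls and -0.75, 1.46 and 1.24 on mutants, lowest on control 3 and mutant 1, where Cox7a1 was lowest. Striated muscle markers did not follow that order: of 7 tested of 8, 0 were called, and the medians were -0.19, -0.28 and -0.09 on controls and -0.43, -0.07 and -0.14 on mutants. Of fat markers 4 of 5 were tested, with medians of 2.21 to 3.73 on controls and 1.29 to 3.28 on mutants. Ucp1, the uncoupling protein of brown fat, had 3.85, 3.77 and 3.19 on controls and 0.93, 2.73 and 2.65 on mutants. It had the largest fall of the 4, whose differences ran from -1.50 to 0.57 with 1 above 0. Their median difference was -0.46, or -0.16 without control 3. The part of any of these tissues in the Cox7a1 values was not tested. Mutants 2 and 3, with smooth muscle medians of 1.46 and 1.24 beside 1.74 and 1.28 on controls 1 and 2, had Cox7a1 ratios of -0.12 and -0.47 beside 1.46 and 1.18.

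Cox6a2, the muscle isoform of subunit 6a, had ratios far below the reference, at -3.24, -3.54 and -4.15 on controls and -3.38, -3.21 and -3.10 on mutants. Its difference was 0.42 (95% interval -0.17 to 1.01), and that of the ubiquitous Cox6a1 was 0.22 (-0.17 to 0.60). Without control 3 these were 0.16 and 0.07. Cox6b2, the testis isoform of subunit 6b, had 2.12, 2.25 and 0.82 against 1.57, 1.99 and 2.00, a difference of 0.12 (-0.82 to 1.07) that was -0.33 without control 3, and its counterpart Cox6b1 differed by -0.10 (-0.49 to 0.28). Cox4i1, the common isoform of subunit 4, had -0.57, -0.48 and -1.17 on controls and -0.38, -0.41 and -0.42 on mutants, a difference of 0.34 (adjusted p = 0.346). Without control 3 that difference was 0.12, and with the sample channel alone 0.01. Cox4i2, the lung isoform, was not well above background. Cox8a differed by -0.07 (-0.39 to 0.25). Its muscle counterpart Cox8b was well above background on 2 control arrays and 0 mutant arrays, and the testis isoform Cox8c on 0 arrays.

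In complex V, Atp5b, the catalytic beta subunit, was read by 3 probes. The brightest gave log2 ratios of 0.25, 0.34 and -0.37 on controls and 0.72, 0.59 and 0.65 on mutants, a difference of 0.58 (SE 0.21, 95% interval 0.08 to 1.08, adjusted p = 0.167), or 0.36 without control 3. The probe at 127522569 gave -0.42, -0.31 and -0.27 on controls and 0.23, 0.22 and 0.21 on mutants. The probe at 127521478 gave -0.20, -0.20 and -0.19 against 0.28, 0.30 and 0.35. In each of the 3 probes every mutant was above every control. The differences of the last pair were 0.55 and 0.51, and there control 3 did not stand below the other controls.

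The alpha subunit Atp5a1, which alternates with beta in the catalytic ring, had log2 ratios of 0.61, 0.65 and 0.60 on controls and 0.89, 0.85 and 0.75 on mutants, a difference of 0.21 (SE 0.11, adjusted p = 0.282). Atp5o, the oligomycin-sensitivity protein of the peripheral stalk, had 0.30, 0.35 and 0.12 against 0.58, 0.56 and 0.50, a difference of 0.29 (adjusted p = 0.198), and its groups were apart, as were those of Atp5a1. Atp5c1, the gamma subunit of the rotating stalk, differed by 0.27 (adjusted p = 0.362), with the groups apart by only 0.002 log2 units and a difference of 0.11 without control 3. Atp5k, subunit e of the membrane part, had 1.06, 0.97 and 0.83 on controls and 0.50, 0.83 and 0.66 on mutants, a difference of -0.29 (adjusted p = 0.248), or -0.10 with the sample channel alone. The remaining complex V subunits lay between -0.15 (Atp5h) and 0.23 (Atp5g3).

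Atp5j2, subunit f of the membrane part, was read unlike by its 2 probes. The brightest, at 145945453, gave log2 ratios of 0.64, 0.64 and 0.51 on controls and 0.22, 0.65 and 0.62 on mutants, a difference of -0.10. The probe at 145950674, designed on another transcript and far dimmer, gave 0.54, 0.83 and 0.43 on controls and -0.09, -1.06 and -1.04 on mutants, a difference of -1.33 with the groups apart. This gap of 1.23 log2 units was the largest between probes of a member, and the only one over 0.5. Averaging a gene's probes made Atp5j2 the single member called (-0.72, adjusted p = 0.0493), beside 3.03% of all genes. The gene was singled out after its values were seen. In all, 28 members had several probes that passed, and in 18 of them the probes had differences of one sign.

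**Figure D3:**
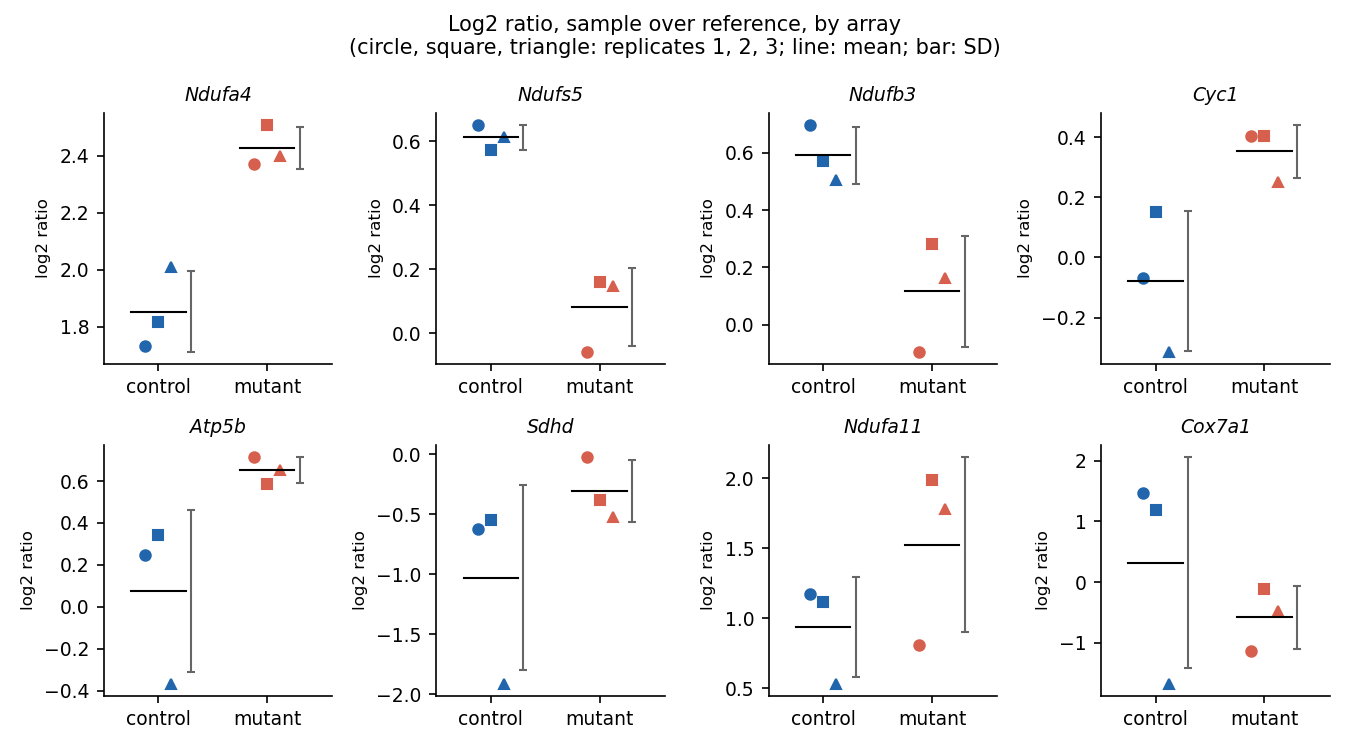
Log2 ratio, sample over reference, on each array for 8 members (controls blue, mutants red; circle, square and triangle are replicates 1, 2 and 3; line, mean; bar, SD, n = 3). The groups are apart for Ndufa4, Ndufs5, Ndufb3, Cyc1, Atp5b and Sdhd and overlap for Ndufa11 and Cox7a1; each panel has its own axis.

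Control 3 set much of the spread. It was the lowest of the 3 controls for 71 of the 86 members (82.6%), against 51.6% of all genes, and lay a median of -0.29 log2 units from the mean of controls 1 and 2, against -0.08 for all genes. By complex this distance was -0.28 for complex I subunits, -0.60 for its assembly factors, -0.28 for complex II, -0.13 for complex III, -0.40 for complex IV and -0.20 for complex V. Mutant 1 lay -0.03 from the mean of mutants 2 and 3. On control 3 the parietal, chief and mucous cell markers were low and the squamous markers high, at 5.02 against 3.64 to 3.67 on controls 1 and 2. The part of these cells in the members' values was not tested, nor that of the array's low signal.

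Without control 3, which is also the comparison within the common scan day, 2 members passed the threshold, Ndufa4 higher and Cox7a1 lower, or 2.33% beside 7.3% of all genes. The members' median moved to -0.10, against -0.02 for all genes, and 28 of 86 were above 0 in place of 42. The median of complex I subunits became -0.18, that of complex IV -0.08 and that of complex V -0.13, while that of complex II went from 0.22 to 0.13.

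**Figure D4:**
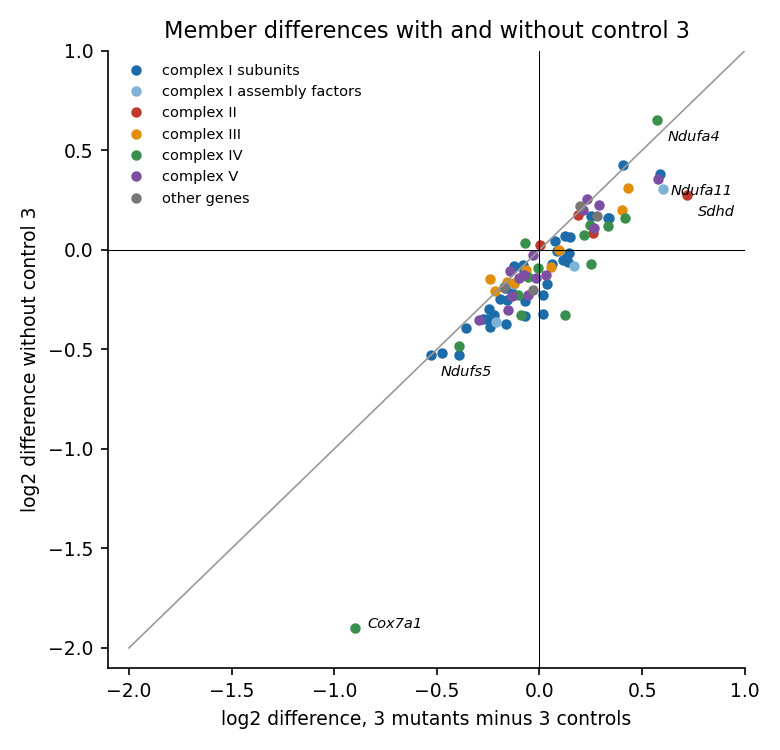
Log2 difference of each member from all 6 arrays (x axis) against that without control 3 (y axis), coloured by complex, with the line of equality in grey. Most points lie below the line; Cox7a1 moves from -0.90 to -1.90 and Sdhd from 0.72 to 0.28.

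Array weights, which limma estimates from how far each array departs from its group, gave control 3 a weight of 0.084 and mutant 1 one of 0.174, against 1.89 to 4.03 for the others. With them 27 members were called, 7 higher and 20 lower, which is 31.4% beside 41.8% of all genes. Leaving out control 3 and mutant 1 called 19 members, 5 higher and 14 lower (22.1%, beside 37.6% of all genes), and all 19 were among the 27. Both settings rest on the near-identical pairs, so their p-values carry the limit given above. In the second, complex I subunits accounted for 10 of the 14 lower members, among them Ndufs5 (-0.46), Ndufb4 (-0.47), Ndufa12 (-0.45) and Ndufb3 (-0.41). The fall of Ndufa12 is that of its brightest probe, and its other probes did not repeat it. On controls 1 and 2 against mutants 2 and 3, one gave -0.55 and -0.57 against -0.49 and -0.48. Another gave -0.15 and -0.24 against -0.28 and -0.24. The 5 higher members included Ndufa4 (0.68), Ndufa11 (0.74), Atp5b (0.33) and the assembly factor Ndufaf2 (0.27). Complexes II and III had 0 called members there.

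Other genes of mitochondrial respiration were read from companion lists. Of the subunits encoded in mitochondrial DNA, 4 were on the array and tested, 0 were called, and 3 had an unadjusted p under 0.05, all lower in mutants. CYTB, the cytochrome b of complex III, had log2 ratios of 1.10, 1.46 and 1.03 on controls and 0.07, 0.66 and 0.61 on mutants, a difference of -0.75 (SE 0.21, adjusted p = 0.114). ATP6, the proton channel subunit of complex V, differed by -0.53 (adjusted p = 0.0959), COX2 of complex IV by -0.41 (adjusted p = 0.101) and ND4 of complex I by -0.57 (adjusted p = 0.241). The direction of ATP6 turned with the sample channel alone, where its difference was 0.20, while COX2 had -0.21 and CYTB -0.45. Taken apart, the channels of ATP6 differed by 0.07 in the sample and 0.60 in the reference. The groups were apart for the first 3 of these and overlapped for ND4. The list's median was -0.55, beside -0.01 for the nuclear members and 0.01 for all genes. The files place the ATP6 and COX2 probes on chromosome 1 and those of CYTB and ND4 on the mitochondrial chromosome, so signal from a nuclear copy cannot be told apart for the first pair. All 4 were called without control 3 and mutant 1 (adjusted p from 0.00709 to 0.0229), a setting that calls 37.6% of all genes and rests on the near-identical pairs.

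**Figure D5:**
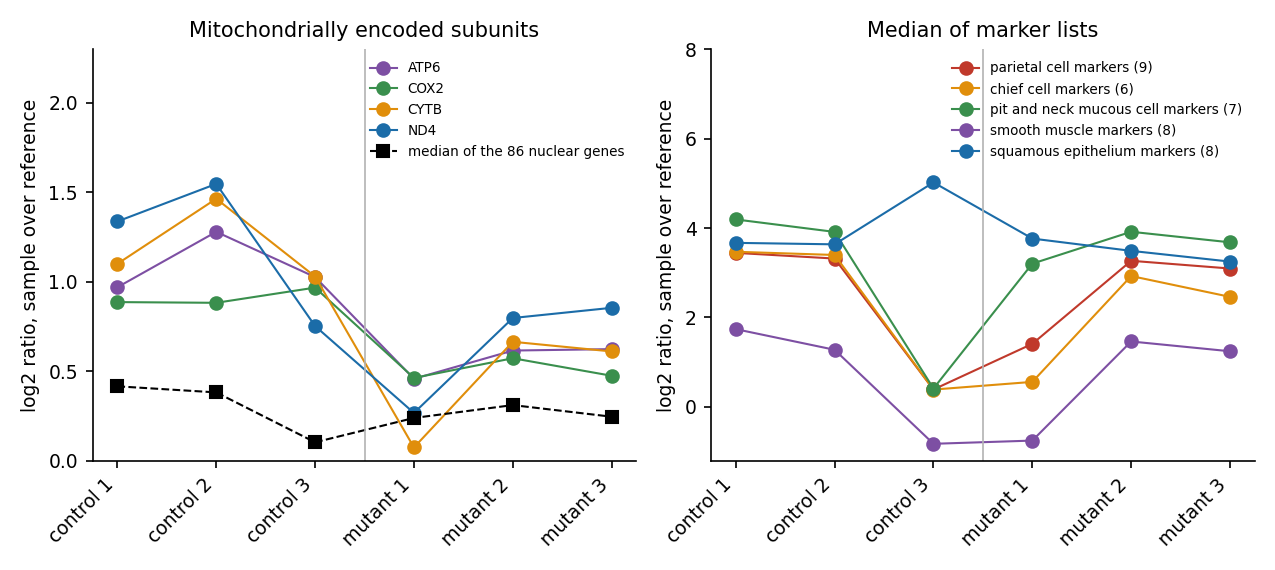
Left, log2 ratio of the 4 mitochondrially encoded subunits on each array, with the median of the 86 nuclear members as black squares; right, median log2 ratio of 5 marker lists, with the number of genes in brackets. Lines only join the points of one series. The mitochondrially encoded subunits run from 0.75 to 1.55 on controls and from 0.07 to 0.85 on mutants (with the sample channel alone ATP6 turns to 0.20), while glandular markers are low on control 3.

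Of 20 genes for electron carriers and mitochondrial exchange, 1 was called. Pdss1, which makes the isoprenoid tail of ubiquinone, rose in mutants, from log2 ratios of -0.94, -0.94 and -1.16 to -0.09, -0.24 and -0.14. Its difference was 0.85 (SE 0.12, adjusted p = 0.0274), and it lost the call under 9 alternatives, 4 of which leave out 1 array (controls 1 or 2, or mutants 2 or 3). The highest adjusted p, 0.456, came with near-identical pairs averaged. Coq4 and Coq2, further down the ubiquinone pathway, lay on the other side of 0, by -0.63 (adjusted p = 0.0681) and -0.50 (adjusted p = 0.107; -0.14 with the sample channel alone).

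The 18 tricarboxylic acid cycle and pyruvate dehydrogenase genes tested had 0 calls, 14 above 0 and a median of 0.19, which was 0.08 without control 3. Idh3a, the catalytic subunit of NAD-dependent isocitrate dehydrogenase, differed by 0.89 (adjusted p = 0.101), Dlat of pyruvate dehydrogenase by 0.53 (adjusted p = 0.127) and malate dehydrogenase Mdh2 by 0.29 (adjusted p = 0.223). With the sample channel alone Idh3a had 0.42 and Mdh2 0.13. Among 40 further assembly factors 0 were called, 20 were above 0 and the median was -0.03. The 3 with the smallest p were lower in mutants: Cox17, a copper chaperone for complex IV, by -0.49, Timmdc1, for complex I, by -0.46, and Atpaf2, for complex V, by -0.38 (adjusted p = 0.0914, 0.0933 and 0.119). With the mean of a gene's probes these were 0.08, -0.23 and -0.18, so the direction of Cox17 turned.

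Regulators of mitochondrial biogenesis, 21 tested, had 0 calls and a median of -0.04. Nrf1, the factor that binds the promoter motif shown above, had log2 ratios of -0.38, -0.41 and -0.14 on controls and 0.30, -0.04 and 0.07 on mutants, a difference of 0.42 (adjusted p = 0.158; 0.24 with the sample channel alone). Esrra, an estrogen-related receptor, differed by -0.37 (adjusted p = 0.123), and Polrmt, the mitochondrial RNA polymerase, by 0.52 (adjusted p = 0.147; 0.18 with the sample channel alone). Mitochondrial ribosomal proteins, 78 tested, had 0 calls, 48 above 0 and a median of 0.05. Mrpl55 had the smallest p, with a difference of -0.72 (adjusted p = 0.0619), then Mrps23 with 0.38 and Mrpl3 with 0.34. Immune markers had 2 called of 7 tested, beside 2.82% of all genes. Both were higher in mutants: the macrophage genes Cd68 (1.49, adjusted p = 0.0169) and Csf1r (0.75, adjusted p = 0.0488). The median difference of the 7 was 0.75, or 0.70 without control 3 and 0.22 without control 3 and mutant 1. The part of immune cells in the members' values was not tested.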

How the data were processed

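Intensity values were deposited by the authors as scanner output, written by Agilent Feature Extraction 10.5.1.1 (10.7.3.1 for control 3), per the file headers, and 9.1 per the submitters' processing notes. The headers name build mm9. A deposited table of log2 ratios by the authors covers the same arrays in the direction of sample over reference (slopes on the scanner ratios 0.978 to 1.171). Its column medians were 0.052, 0.06 and 0.026 for controls and 0.042, 0.043 and 0.039 for mutants, and its normalization and centring are not given in the sources used here. Its columns for mutants 1 and 3 matched each other's scanner files best; numbers here follow the scanner files.

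From the scanner signals, normexp background correction (offset 50), loess within arrays and eBayes were run with limma 3.58.1 in R 4.3.3, with Benjamini-Hochberg adjustment over all genes tested, two-sided, at a threshold of 0.05. Control spots and outlier spots did not enter, and repeated spots were averaged per probe. A gene was represented by its brightest passing probe. The fit has 4 residual degrees of freedom, so the number of arrays limits the precision. No label ties an array to a separate animal beyond calling it a biological replicate, so p-values may measure technical spread in part. Gene names were updated through the RefSeq table of GRCm38.p6; member names are those of the files. The script was tested on simulated data.

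The members and lists were chosen with earlier results of these data known. The text names, per complex, the 4 members with the smallest p, the largest difference each way and the brightest, all of complex II, Cyc1, the isoform pairs, and the 3 companion genes with the smallest p in each list; Ndufb4, Ndufa12, Uqcrc1, Uqcrc2, Uqcrfs1, Atp5c1, Atp5h, Atp5g3 and Atp5j2 were named after their values were seen. One gene that the rule names is not reported here.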

Additional observations from a re-analysis of the deposited data

How the results depend on the processing

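Each result was recomputed under 20 alternatives. The count of members called higher, 0 of 86, became 1 with scan day as a block, 7 with array weights and 5 without control 3 and mutant 1; leaving out 1 array gave 0 to 1, with the 1 without control 3. The count called lower, 0, became 1 with the mean of a gene's probes, 1 with scan day as a block, 20 with array weights and 14 without control 3 and mutant 1, and 0 to 1 when leaving out 1 array. With the other alternatives both counts stayed at 0, although calls over all genes ran from 0 (near-identical pairs averaged) to 8612 (array weights), with 582 in the report. The same-numbered arrays share only a number: their deviations from the group means correlated at 0.00, 0.02 and 0.13, and with a replicate block 0 members and 131 genes were called. With slide as a random block (correlation 0.595) 0 members and 4 genes were called.

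The median of complex I subunits ran from -0.182 (without control 3) to 0.076 (without control 1) when leaving out 1 array. That of its assembly factors was -0.155 without control 3 and mutant 1. That of complex II was 0.086 with array weights and 0.085 without control 3 and mutant 1. That of complex III was -0.086 with processed signals, -0.021 with ratios scaled to one spread, -0.045 in the deposited table, -0.022 in the sample channel alone, -0.10 with scan day as a block, and -0.100 to -0.018 when leaving out 1 array. The cause of these moves was not tested. The medians of all members and of complexes IV and V moved by less than their spread between arrays under every alternative. Of the genes named by the rule, 31 that did not pass were called under at least 1 alternative and 0 reversed a call. All 31 were called with array weights, a setting that calls 41.8% of all genes, and many of them were named for their small p. Pdss1 lost its call under 9. Cox4i2, Cox7b2 and Cox8c, not well above background on any array, have no tested value.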
